A study of Mus musculus with 8 samples.

Results

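Asap1 is a gene of 296.102 kb on mouse chromosome 15 (64086840 to 64382941, build mm10), and 38 of the 68800 accessible regions found across the series were assigned to it. A region is a stretch of DNA that held at least 1 ATAC-seq peak summit, each summit being extended by 150 bp to either side and overlapping stretches being merged over all lists. A region belonged to Asap1 when the span of that gene was the nearest protein-coding gene within 100 kb of the region's midpoint. Of the 38 regions, 36 had their midpoint inside the gene, 1 lay 10988 bp beyond its lower-coordinate end and 1 lay 6831 bp beyond its higher-coordinate end. The gene was chosen by its peak calls at day 0, 4, 8 and 12, because it held more regions gained on doxycycline (Dox) than any other gene, so its count of gained regions is a description and was not tested.

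ATAC-seq marks open chromatin by letting a transposase insert sequencing adapters where DNA is not covered by nucleosomes. It was applied to AML246, a mouse acute myeloid leukaemia line grown in medium with the cytokine IL-3. In this line PU.1, the myeloid transcription factor encoded by Spi1, is restored while Dox is present and knocked down again after Dox is removed, per the sample labels. The sources used here give neither the construct behind this control nor whether cultures ran in parallel or in series. The groups were total viable cells before Dox (day 0, low PU.1), total viable cells after 4, 8 and 12 days on Dox at 0.1 µg/mL, CD11b-high viable cells sorted after 12 days on Dox, and total viable cells 4, 8 and 12 days after Dox had been withdrawn at day 12. CD11b is an integrin of mature myeloid cells. Each of the 8 groups held 1 library, so no value below has a replicate error, no test between groups was possible, and intervals cover counting error only.

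ASAP1 is a GTPase-activating protein for ARF proteins, small GTPases that recruit coats and shape membranes and the cortical actin below them. It has lipid-binding, ARF GAP and SH3 domains, binds the kinases SRC and FAK, and is known from podosomes, focal adhesions and invadopodia, structures with which adherent and migrating cells, macrophages among them, attach to and degrade matrix. Accessibility of a region says nothing by itself about the RNA or protein of the gene in which it lies.

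The 8 lists held 31957 to 51175 summits. Their lengths differ, and the sources used here give no read depth. A region is called open in a library when that library had a summit in it. "Not open" means that no summit was called, not that the region was shown to be closed. Each summit carries the authors' score, read here as a significance on the −log10 scale, of a p-value or else a q-value. It moves with depth, so scores are printed per library and a difference between libraries is not a measured change. Over regions open in all 8 libraries the median score ran from 15.6 at day 12 to 31.8 at 4 days off. Within a list, a score is also given as the percentage of that list's summits that score lower (its percentile), which depends on what else the list holds. Blood-cell marker genes were accessible throughout, with an open region inside or within 1 kb of 7 to 8 of 8 such genes per library. Monocyte and macrophage markers numbered 6 of 10 at day 0, 9 of 10 at day 4, 8 and 12 and in CD11b-high cells, 10 of 10 at 4 days off and 7 of 10 at 8 and 12 days off, beside 1 to 2 of 6 genes of other tissues. Neutrophil markers numbered 2 to 4 of 8, eosinophil markers 2 to 3 of 6, erythroid markers 3 to 4 of 6, B cell markers 1 to 3 of 6 and T cell markers 2 to 4 of 6. In bulk libraries, fewer cells with an open region and less accessibility per cell cannot be told apart, and what part cell composition has in the values at Asap1 was not tested.

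Asap1 had its fewest open regions before Dox and its most at day 8. Of the 38 regions, 12 had a summit before Dox. On Dox, 19 had one after 4 days, 30 after 8 days and 24 after 12 days, and 24 had one in CD11b-high cells. After withdrawal there were 26 at 4 days, 19 at 8 days and 14 at 12 days. Because lists differ in length, these counts were also taken per 10000 open regions of each library. On that scale the locus held 3.39 (95% interval 1.75 to 5.92) before Dox. The values on Dox were 5.51 (3.32 to 8.60) after 4 days, 6.53 (4.41 to 9.32) after 8 days and 7.04 (4.51 to 10.5) after 12 days. CD11b-high cells gave 6.83 (4.38 to 10.2). The libraries at 4, 8 and 12 days off gave 5.20 (3.40 to 7.61), 4.68 (2.82 to 7.30) and 4.49 (2.46 to 7.53). The highest value was thus at day 12 and the lowest at day 0, and the intervals of these 2 libraries overlap. The libraries of days 0 to 12 entered the choice of the gene.

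**Figure D1:**
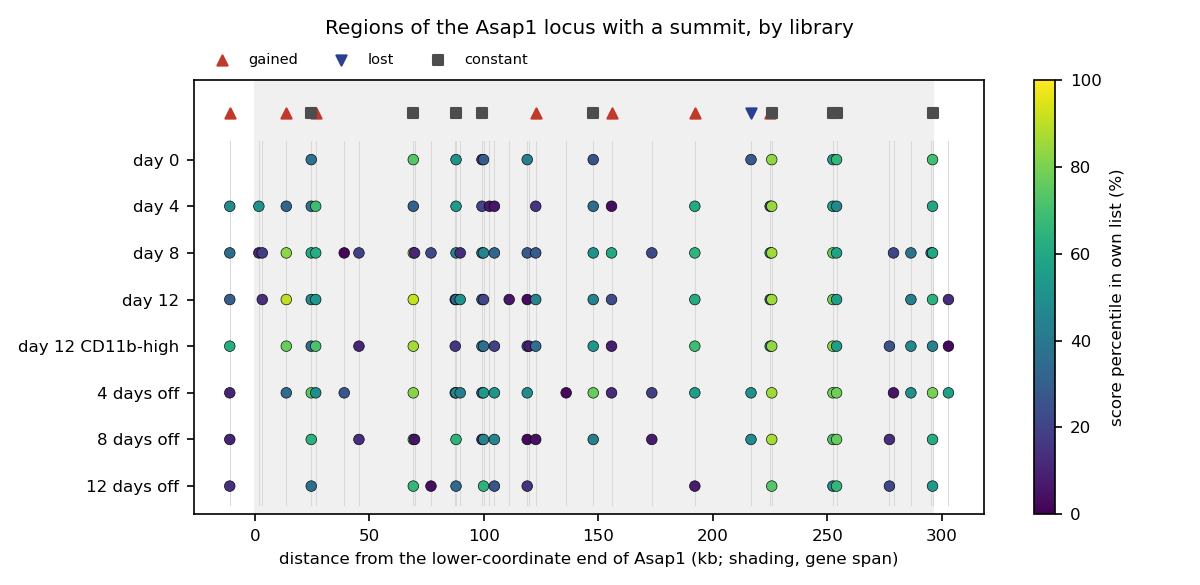
Each point is a region with a summit, placed by its distance in kb from the lower-coordinate end of Asap1 (horizontal axis; shading marks the gene) and by library (vertical axis), and coloured by the percentile of its score in that library's list; triangles and squares in the top row mark regions gained, lost or constant on Dox. The day-0 row has 12 points and the day-8 row 30, and gained regions are spread along the gene rather than gathered at 1 end.

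Summed over the chromosome, the other regions of chromosome 15 made up 449 per 10000 open regions at day 0, 457 at day 12 and 448 at 12 days off, which is 0.999 to 1.02 times the day-0 value in the 7 later libraries. The corresponding ratios at Asap1 ran from 1.33 at 12 days off to 2.08 at day 12. All are ratios to day 0, and the gene was chosen for regions not open at day 0, so the choice bears on all 7. Those at day 4, 8 and 12 also rest on later libraries by which the gene was chosen. The sum does not describe single genes: Oxr1, also on chromosome 15, had 11 open regions at day 0, 16 at day 12 and 10 at 12 days off.

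By their state in the 4 libraries from day 0 to day 12, 7 of the 38 regions were gained (not open at day 0, open at day 4, 8 and 12), 1 was lost (open at day 0, not open at the 3 later times) and 9 were constant (open at all 4). Over the 64638 regions assigned to any gene, 4.86% were gained, 5.49% lost and 32.5% constant. At Asap1 the gained share was 18.4% (7.74 to 34.3), a value that the choice of the gene fixes. Next after Asap1 were 7 genes with 5 gained regions each. Asap1 also offered many regions, since 4 of the 16303 genes with a region had more and the median gene had 3. Among the 162 genes with at least 20 regions the median share of gained regions was 5%, and the highest apart from Asap1 was 22.7%, so its share was not the highest among them.

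The remaining 21 regions had other courses. At day 8 alone 7 were open (11.1% of all 68800 regions had that pattern), 3 were open at day 8 and 12 (5.08% of assigned regions), and 3 at day 12 alone (3.27% of all regions). There were 2 open at day 4 and 8 (2.58%), 1 at day 4 alone (3.16%), 2 at every time but day 4 (2.90%) and 3 in none of these 4 libraries (17.9%). Of the 26 regions not open at day 0, 10 were first seen at day 4, 10 at day 8, 3 at day 12, 2 in the CD11b-high sort and 1 at 4 days off. Genome-wide, 33390 regions were not open at day 0. Of these, 7621 were first seen at day 4, 11230 at day 8 and 2252 at day 12. A further 1981 were first seen in the CD11b-high sort and 7505 at 4 days off.

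The 7 gained regions differed in strength and in what followed. The strongest at day 12 lay 13.7 kb inside the gene from its lower end (64100349 to 64100734), within the span of the long noncoding RNA gene Gm20717 (64098208 to 64101670). Its score was 8.43 at day 4, then 30.6 at day 8 and 29.2 at day 12. CD11b-high cells gave 19.3 and the library at 4 days off 8.46, with no summit at day 0 or at 8 and 12 days off. In the day-12 list that score exceeded 89.9% of all summits, and it exceeded 98.8% of the scores of the 3399 regions gained genome-wide. At day 4 the same region stood at the 32.7th percentile of its list, and at 4 days off at the 35.3rd. Against the scores of the 18733 regions open in all 8 libraries, it stood at percentile 10.3 at day 4 and 1.85 at 4 days off.

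The region 26.5 kb from the lower end (64113209 to 64113566) scored 24.2 at day 4, then 15.7 at day 8 and 10.1 at day 12. The score was 16.4 in the CD11b-high sort and 11.8 at 4 days off, and it had no summit at day 0 or at 8 and 12 days off. Among all gained regions its day-4 score exceeded 95.6%. Within its own lists it stood at percentile 69.1 at day 4, 61.7 at day 8, 52.7 at day 12 and 71.3 after the CD11b-high sort. This region and the one at 13.7 kb had summits in the same 5 libraries. A constant region lay 1944 bp away, midpoint to midpoint.

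The region 192.2 kb from the lower end (64278821 to 64279168) scored 17.3 at day 4, 17.4 at day 8 and 12.4 at day 12. It scored 15.1 in the CD11b-high sort and 14.1 at 4 days off, was not open at 8 days off, and had a summit again at 12 days off with a score of 4.03, at the 8.05th percentile of that list. In total cells on Dox its rank stayed between the 60.5th and 65.2nd percentile of each list. Its 6 summits lay within 47 bp of each other, so the lists placed them at nearly the same base.

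The gained region outside the gene, 10988 bp below its lower end (64075579 to 64076126), was the only one of the 7 open in all 7 libraries after day 0. It scored 12.2 at day 4, 8.21 at day 8, 6.26 at day 12 and 12.5 in CD11b-high cells. Its scores of 4.60, 4.56 and 4.78 at 4, 8 and 12 days off lay at the 10.0th, 9.80th and 13.7th percentile of their lists. A summit was thus called in the region at each time off Dox, with a score near the lower end of each list. From the region's midpoint, the summits lay at -48, 116 and 124 bp at day 4, 8 and 12 and at 13 bp in CD11b-high cells. Those at 4, 8 and 12 days off lay at -41, -27 and -123 bp. Whether all belong to a single peak was not tested. Cyrib, the neighbouring gene on that side, ends 26062 bp below Asap1, and the next region below belonged to Cyrib. That region lay 14951 bp from Asap1 and 11111 bp from Cyrib, was open in 2 libraries and scored 3.66 and 5.22.

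Of the last 3 gained regions, that at 122.7 kb (64209323 to 64209671) scored 5.27, 7.25 and 8.22 at day 4, 8 and 12 and 6.98 in CD11b-high cells, and its only later summit, at 8 days off, scored 3.57, above 4.51% of that list. That at 155.8 kb (64242247 to 64242975) scored 3.22 at day 4, 15.5 at day 8, 5.64 at day 12, 3.85 in the CD11b-high sort and 5.19 at 4 days off. Its day-4 summit exceeded only 3.34% of that list. The region at 225.1 kb (64311746 to 64312061) scored 6.12, 12.0 and 6.30 at day 4, 8 and 12 and 8.60 in CD11b-high cells, and had no summit after withdrawal. It lay 683 bp from a constant region, and a day-0 summit lay 849 bp from its nearest summit, so accessible chromatin was called close by before Dox.

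**Figure D2:**
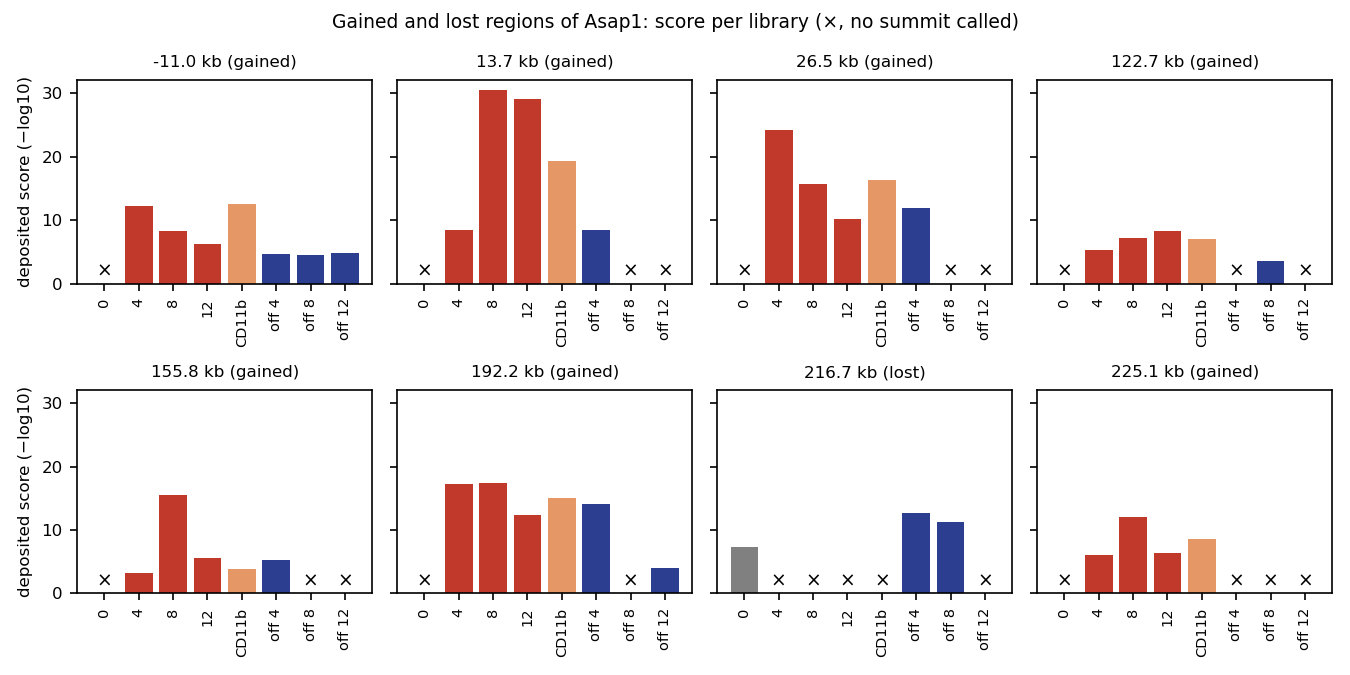
Bars give the deposited score (−log10 scale, vertical axis from 0) of the 7 gained regions and the lost region of Asap1 in each library (horizontal axis: days on Dox, CD11b-high cells, days off), with panels titled by distance from the lower end of the gene and a cross where no summit was called. All 7 gained regions have a bar in CD11b-high cells, and 2 have one at 8 days off. Scores move with depth, so bar heights of different libraries are not on a like base.

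Gained regions were set 12846 to 96110 bp apart, over 236051 bp of the locus. None lay within 1 kb of an end of the gene, and 6 of 7 lay inside it. Genome-wide the share lying that near an end of their gene was 8.18% for gained and 39.3% for constant regions. The median length of the 7 was 358 bp, beside 387 bp for all gained regions. Their summits spread over 15 to 428 bp per region with a median of 57.0 bp, beside 86.0 bp (quartiles 45.0 and 138) over all gained regions. The 2 wide ones were those at 155.8 kb (428 bp) and outside the gene (247 bp). At 155.8 kb the spread shrank to 77 bp over day 4, 8 and 12.

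With a score of at least 10 required, 2 regions remained gained, at 26.5 and 192.2 kb. With day 12 alone set against day 0 the count was 13, and with 2 of the 3 times on Dox it was 12. Both rules are looser genome-wide too, where 4.94% of all regions were gained. The first adds the patterns open at day 8 and 12 (5.23% of all regions), day 12 alone (3.27%) and day 4 and 12 (0.397%). The second adds those open at day 8 and 12, day 4 and 8 (2.58%) and day 4 and 12.

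The rule for a gained region did not use CD11b-high cells or the 3 libraries after withdrawal. Their summits did help to set the bounds of regions, which were merged over all lists. In CD11b-high cells 7 of the 7 gained regions were open (100%, 59.0 to 100), where 84.0% of all 3399 gained regions were. At 4 days off 5 of 7 were open (71.4%, 29.0 to 96.3; all gained regions 74.8%). At 8 days off 2 of 7 were open (28.6%, 3.67 to 71.0; all 49.5%), and at 12 days off also 2 of 7 (28.6%; all 26.2%). Each genome-wide share lay inside the interval of the Asap1 share, so with 7 regions no difference from other gained regions was detectable. Of the 7, 4 were open at neither 8 nor 12 days off, a state that 46.7% of all gained regions had. The 4 Asap1 summits called at 8 or 12 days off scored 3.57 to 4.78. With a score of at least 5 required no gained region of Asap1 was open at 8 or at 12 days off, and 3 of 6 were open at 4 days off.

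**Figure D3:**
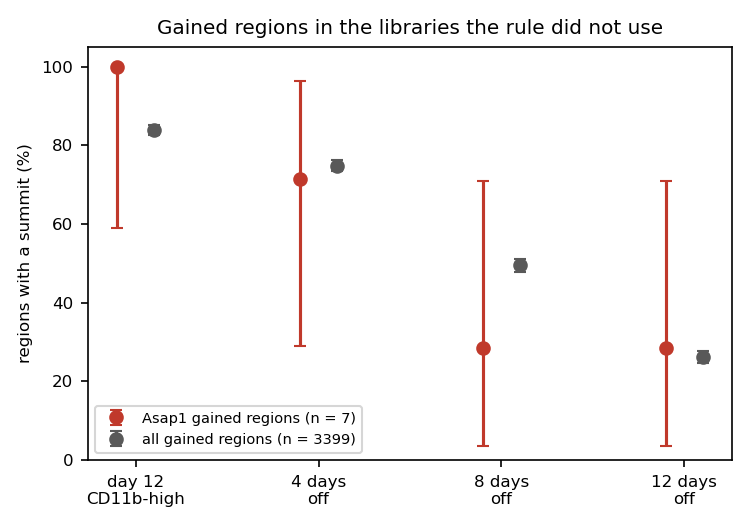
Points give the percentage of gained regions with a summit (vertical axis) in the 4 libraries that the rule for gained did not use (horizontal axis), for the 7 at Asap1 and the 3399 of the genome, with 95% Clopper-Pearson intervals. The Asap1 intervals are wide, 3.67 to 71.0% at 8 days off, and take in the genome-wide value in each library.

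Of the 12 open at day 0, 12 were open at 4 and at 8 days off and 9 at 12 days off (75.0%, 42.8 to 94.5). Of all regions open at day 0, 88.9%, 86.0% and 74.4% were open at those times. Of the 26 not open at day 0, 14 were open at 4 days off (53.8%), 7 at 8 days off (26.9%) and 5 at 12 days off (19.2%, 6.55 to 39.4), beside 55.6%, 30.4% and 14.5% of all such regions. At each time off, the share of open regions was thus higher among the 12, as it was genome-wide. Set against day 12 instead, 11 of the 24 regions open at that time were open at 12 days off (45.8%, 25.6 to 67.2), where 68.9% were over all regions. Without the gained regions, 9 of 17 were (52.9%, 27.8 to 77.0), and the genome-wide share without gained regions was 73.6%. The day-12 library is among those by which the gene was chosen.

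The lost region lay 216.7 kb from the lower end (64303346 to 64303723). It scored 7.23 at day 0, at the 28.5th percentile of that list, and had no summit at day 4, 8 or 12 or in CD11b-high cells. It scored 12.7 at 4 days off and 11.2 at 8 days off, at the 50.6th and 47.8th percentile, and had no summit at 12 days off. Percentiles of different lists are not on a like base. Against the scores of the 18733 regions open in all 8 libraries, it stood at percentile 7.19 at day 0, 6.72 at 4 days off and 11.5 at 8 days off. Of all lost regions, 7.45% were open in CD11b-high cells, 48.4% at 4, 44.8% at 8 and 25.6% at 12 days off. With a score of at least 10 required it was not counted as lost, since its day-0 summit scored lower.

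Of the 9 constant regions, 6 were open in all 8 libraries, where 85.8% of all constant regions were. These 6 made up 15.8% of the 38 regions, beside 27.9% of all assigned regions. The region at the higher end of the gene (64382638 to 64383025), with its midpoint 110 bp from that end, was one of them. It scored 21.6 before Dox, 16.4, 14.9 and 13.2 on Dox at day 4, 8 and 12, and 8.19 in the CD11b-high sort. Off Dox it scored 30.9, 15.8 and 11.1 after 4, 8 and 12 days. A second region 613 bp from it was open at day 8 alone, with a score of 8.32. At the lower end no region was open in all libraries, and the nearest one, 1712 bp inside, had summits at day 4 (12.6) and day 8 (4.59) only.

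The region with the highest score of the locus lay 225.7 kb from the lower end (64312176 to 64312997). It scored 37.4 before Dox, 46.3, 34.5 and 24.3 on Dox at day 4, 8 and 12, and 23.8 in the CD11b-high sort. Off Dox it scored 37.8, 36.4 and 19.4 after 4, 8 and 12 days. The other 4 lay at 24.6 kb (64111186 to 64111700), 69.2 kb (64155812 to 64156214), 252.5 kb (64339143 to 64339498) and 254.1 kb (64340720 to 64341099). To set them side by side across libraries, each was ranked by score among the same 18733 regions open in all 8 libraries.

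On that ranking the region at 225.7 kb stayed between the 56.9th and 73.3rd percentile. The region at 252.5 kb stood at the 23.4th percentile at day 0, the 28.9th at day 4, the 46.2nd at day 8, the 63.8th at day 12 and the 67.4th in CD11b-high cells, and at the 45.6th, 39.9th and 23.8th at 4, 8 and 12 days off. It thus stood higher at each later time on Dox and lower at each later time off, ending near its day-0 rank. Of the 18733 regions, 4.65% stood as many points higher at day 12 than at day 0, and 3.37% in CD11b-high cells. The region at 254.1 kb, 1589 bp away, took another course, with the 39.3rd percentile at day 0, the 19.0th, 17.0th and 31.0th at day 4, 8 and 12, the 29.0th in CD11b-high cells and the 44.0th, 50.2nd and 46.6th at 4, 8 and 12 days off. Its 4 ranks on Dox were all below its day-0 rank and its 3 ranks off Dox all above it. Many of the 18733 regions changed as much in the same direction. On Dox the shares were 7.21%, 11.6% and 33.4% at day 4, 8 and 12 and 29.3% in CD11b-high cells. Off Dox they were 36.5%, 20.6% and 27.5% at 4, 8 and 12 days.

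At 69.2 kb the rank was 50.7 at day 0, 9.65 at day 4, 74.6 at day 8, 84.2 at day 12 and 74.1 in CD11b-high cells, then 53.5, 43.2 and 46.9 at 4, 8 and 12 days off. Its day-4 score of 8.07 stood apart from the 15.8 to 39.6 of the other libraries, and 0.779% of the 18733 regions fell as far in rank between day 0 and day 4. At 24.6 kb the rank lay between 11.4 and 34.7. The region at the higher end stood at 45.0 at day 0, 31.2, 18.9 and 41.3 at day 4, 8 and 12, 17.9 in CD11b-high cells and 47.9, 25.2 and 30.3 at 4, 8 and 12 days off, with no single course. Without replicates, the spread that such ranks have between libraries of one condition is unknown; the quartiles of the change from day 0 to day 12 over the 18733 regions were -13.4 and 11.5 points.

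**Figure D4:**
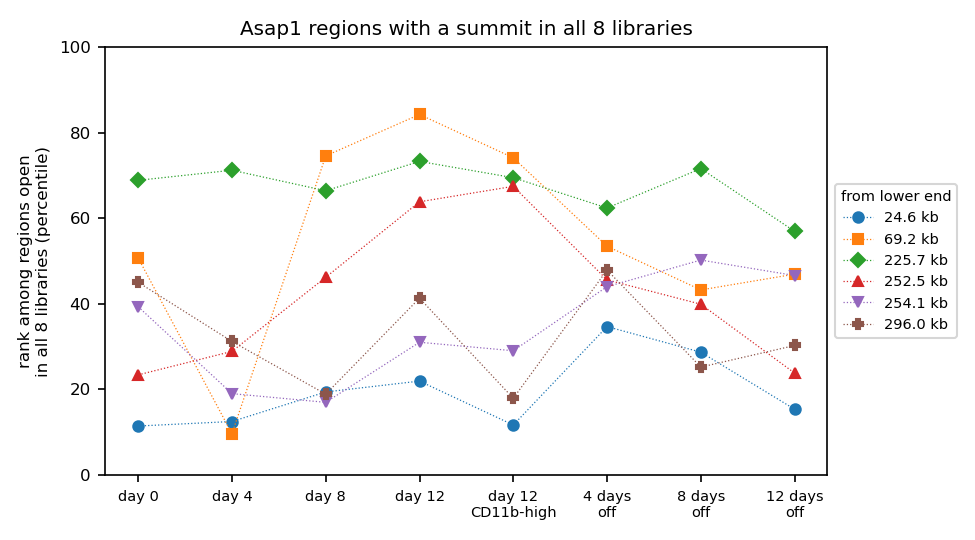
Points give the rank of the 6 Asap1 regions open in every library (vertical axis, percentile by score among the 18733 regions open in all 8 libraries) by library (horizontal axis), labelled by distance from the lower end of the gene. The region at 252.5 kb runs from 23.4 at day 0 to 67.4 in CD11b-high cells and back to 23.8 at 12 days off, while that at 254.1 kb is at its lowest, 17.0, at day 8.

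The other 3 constant regions each missed 1 of the remaining lists. The region at 87.8 kb was not open in CD11b-high cells, where 93.3% of all constant regions were, so 8 of the 9 were open there. All 9 were open at 4 and at 8 days off, as were 98.7% and 97.6% of all constant regions. Those at 99.2 and 147.8 kb were not open at 12 days off, where 7 of the 9 and 91.7% of all constant regions were open. At 147.8 kb the score was 6.39 at day 0, 8.61, 11.8 and 8.28 at day 4, 8 and 12, 10.0 in CD11b-high cells, 28.0 at 4 days off and 10.0 at 8 days off. Its value at 4 days off stood apart from the others, in the list that was also the longest.

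Some regions with mixed courses had their highest score after withdrawal, although scores of different libraries are not on a like base. The region at 104.6 kb was not open at day 0 or 12, scored 3.68 at day 4, 7.70 at day 8 and 5.08 in CD11b-high cells, and scored 13.1, 10.5 and 6.01 at 4, 8 and 12 days off. It was open at all 3 times off, at the 52.3rd, 45.5th and 25.6th percentile. Against the scores of regions open in all 8 libraries, it stood at percentile 7.57, 9.88 and 8.91 at those times. On that ranking it stood at 1.07 at day 4, 2.73 at day 8 and 5.04 in CD11b-high cells. The region 6831 bp above the higher end of the gene, in the interval before the long noncoding RNA gene Gm30563 (64392233 to 64436884), scored 4.52 at day 12, 2.63 in the CD11b-high sort and 15.3 at 4 days off. It was not open in the other 5 libraries, and its score at 4 days off was at the 57.4th percentile. Against regions open in all 8 libraries it stood at percentile 3.22 at day 12, 0.368 in the CD11b-high sort and 11.5 at 4 days off. The next region above it lay 244594 bp from Asap1 and belonged to Adcy8.

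Of the 3 regions open at both day 8 and day 12 but not before, that at 286.5 kb scored 8.65 and 8.01 at these times, 8.73 in the CD11b-high sort and 12.4 at 4 days off. That at 89.7 kb scored 5.13, 9.48 and, at 4 days off, 10.4, and that at 3.22 kb scored 5.62 and 4.60 and had no other summit. None of the 3 was open at 8 or 12 days off, where 33.3% and 16.8% of all 3600 regions with that pattern were. With 3 regions no difference from those shares was detectable. The 7 regions open at day 8 alone among the times on Dox scored 2.82 to 8.32 there. Regions open in a single library numbered 5 of 38, or 13.2%, beside 23.1% of all assigned regions.

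Of the 2 nearest protein-coding genes on each side of Asap1, Cyrib alone held gained regions. Cyrib, which encodes a RAC1-binding regulator of the actin-branching WAVE complex, held 3 gained and 0 lost regions among 15. Of the 3 gained, 2 were open in CD11b-high cells, 2 at 4 days off, 1 at 8 and 0 at 12 days off. Of all gained regions, 84.0%, 74.8%, 49.5% and 26.2% were open in these libraries. The gasdermin gene Gsdmc4, 174521 bp from Asap1, held 0 gained and 0 lost among 3. The adenylate cyclase gene Adcy8, 316094 bp away, held 0 and 0 among 4. Efr3a, 1.40e+06 bp away, whose product anchors a lipid kinase at the plasma membrane, held 0 gained and 1 lost among 7. Over all assigned regions 4.86% were gained and 5.49% lost, and regions this few cannot show a difference from those shares. On the scale per 10000 open regions, Cyrib held 1.98 at day 0, 2.64 at day 12 and 2.25 at 12 days off.

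Among genes with many gained regions, Etv6, an ETS-family repressor on chromosome 6, held 5 gained and 1 lost among 19 regions. Its gained regions were open in 5 of 5 cases in CD11b-high cells, 4 at 4 days off and 3 each at 8 and 12 days off. For Eif3h, a translation initiation factor subunit gene on chromosome 15, 5 of 17 regions were gained, with 5, 3, 2 and 1 open in the same libraries. Itpr1, an intracellular calcium channel gene, had 5 gained among 24 regions, with 4, 5, 3 and 2 open. At these 3 genes, as at Asap1, fewer gained regions were open at 12 days off than in CD11b-high cells. Itpr1 as a whole held 3.95 per 10000 open regions at day 0, 4.69 at day 12 and 5.45 at 12 days off, its highest value, whereas the lowest 3 values of Asap1 were those of day 0 and of 8 and 12 days off. These genes were known from earlier results of the same lists, and differences between them were not tested.

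**Figure D5:**
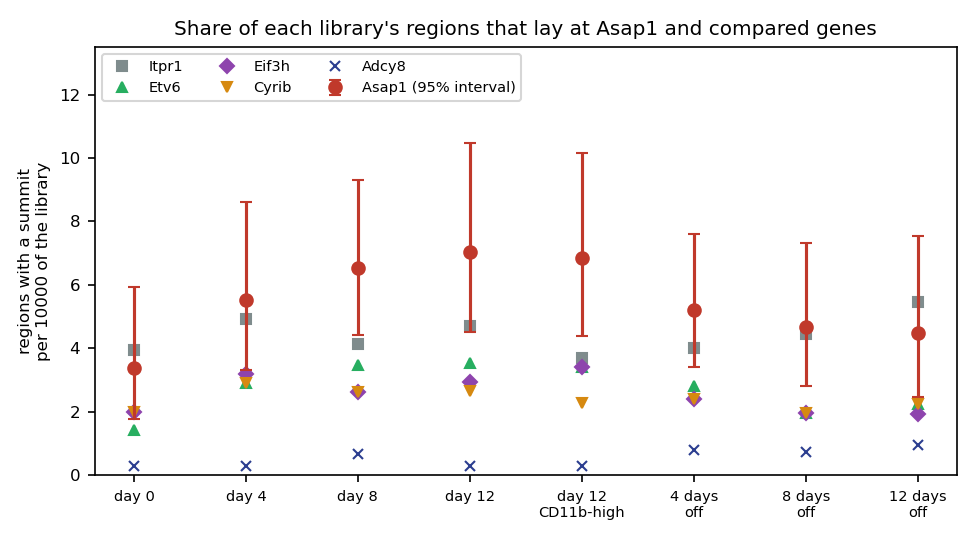
Points give the number of regions with a summit per 10000 open regions of the library (vertical axis) by library (horizontal axis), with a 95% Clopper-Pearson interval for Asap1. Asap1 runs from 3.39 at day 0 to 7.04 at day 12 and 4.49 at 12 days off, while Adcy8, its neighbour on the higher side, stays under 1.

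Among 1281 other genes with at least 10 regions, the 5 whose number of open regions per 10000 was most like that of Asap1 over the 8 libraries were Etv6 (Pearson r 0.97, Spearman coefficient 0.95), the guanylate cyclase receptor gene Gucy2c (0.97 and 0.98), the hepatocyte growth factor gene Hgf (0.96 and 0.98), Ptprc (0.96 and 0.98) and Oxr1 (0.95 and 0.90). At Etv6, 5 regions were open before Dox, 10, 16 and 12 on Dox at day 4, 8 and 12, again 12 in the CD11b-high sort, and 14, 8 and 7 off Dox after 4, 8 and 12 days. Ptprc, which encodes the leukocyte antigen CD45, had 4, 7, 11, 10, 9, 8, 5 and 4 in the same order. These are descriptions over 8 libraries whose list lengths all genes share.

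Of 58 genes of the ARF cycle and ASAP1's partners, 57 had a region. Together with Asap1 they held 38 gained and 25 lost regions among 444, and without Asap1 31 gained (7.64%) and 24 lost (5.91%) among 406, beside 4.86% and 5.49% over all assigned regions. On balance 15 of the 57 genes, Asap1 among them, gained (26.3%), 12 lost (21.1%) and 30 were at 0, beside 12.0% gaining and 14.4% losing of all 16303 genes with a region. The median balance was 0 in both. The 57 genes held 444 regions and the 16303 genes 64638, so the listed genes held more regions each. Regions per gene were not matched, and a gene with more regions can more easily leave 0 in either direction.

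Among the ARF GAPs, which switch ARF proteins off, 16 of 166 regions were gained and 6 lost. Without Asap1, which was chosen for its gained regions, 9 of 128 were gained (7.03%), beside 4.86% of all assigned regions. Agap1, an endosomal ARF GAP, held 4 gained and 1 lost among 33 regions, and Arap1 held 2 gained and 0 lost among 9. Of the nearest relatives of Asap1, Asap2 held 0 gained and 1 lost among 6 and Asap3 0 and 0 among 2. Arap2 lay at the losing end with 2 lost and 0 gained among 10. The ARF genes themselves held 1 gained (4.35%) and 4 lost (17.4%) among 23, beside 4.86% and 5.49% of all assigned regions. The gained region and 2 of the lost ones were at Arf2.

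Among the exchange factors, which switch ARF proteins on, 10 of 118 regions were gained (8.47%) and 4 lost (3.39%). Over all assigned regions 4.86% were gained and 5.49% lost. Psd3 held 3 gained and 0 lost, and Cyth4, a cytohesin of blood cells, 2 gained and 0 lost. The partners of ASAP1 held 11 gained and 11 lost among 137 (8.03% each). Differences of these lists from all assigned regions were not tested. The adhesion kinase gene Ptk2b held 3 gained and 2 lost among 17 and the adaptor gene Sh3kbp1 3 and 1 among 15, whereas Myh9, the non-muscle myosin heavy chain gene, held 0 gained and 2 lost among 20. Src held 0 and 0 among 5, and Ptk2, which encodes FAK, 0 gained and 1 lost among 7. Asap1 was thus the list member with the most gained regions, as its choice fixes.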

How the data were processed

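Per the submitters' processing notes, the authors used MACS2 and Picard 2.14.0 on build mm10; the MACS2 version, aligner, depth and filters are not stated there. The deposited lists give 1 base and 1 score per summit, called per library. The authors' score was read as a −log10 p-value or q-value because the lists start at 1.30 to 1.39, near the −log10 of 0.05. Between 85 and 121 summits per library on other contigs were left out. Regions were assigned with a RefSeq gene table of GRCm38.p6 (mm10), which gives neither strand nor exons. Where spans overlap, the shorter was taken. Exons, introns, untranslated regions and sequence motifs were not analysed here. The code for the calls was run on simulated lists of well-separated sites with narrow summit spread. That checks the code and not the calls where real regions are wide or lie close together. Shares carry Clopper-Pearson 95% intervals (SciPy 1.17.1, pandas 2.3.3). The gene, comparison genes, ARF and marker lists and alternatives were chosen with earlier results of these data known. Named genes were Asap1, the 2 nearest genes on each side, Itpr1, Etv6, Eif3h, ARF list members with most gained or lost regions (up to 6 each way; ties and some members not reported here; Asap2, Asap3, Src and Ptk2 were added) and the 5 genes most like Asap1.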

Additional observations from a re-analysis of the deposited data

How the results depend on the processing

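There were 13 alternatives, of which 4 were chosen after seeing the data. These 4 left out day 4, 8 or 12 from the rule or put CD11b-high cells in place of day 12. Of 103 counts at Asap1, 80 stayed within 1.5 times the reported one and 23 did not. The balance of gained over lost regions kept its sign in all, which the choice of the gene favours, so it is not independent support. The number of regions could not change where only the rule changed, and the balance repeats the gained and lost counts. With a score of at least 10, Asap1 had 22 regions, 2 gained, 0 lost and a balance of 2, with 2 gained regions open in CD11b-high cells, 2 at 4 days off and 0 at 8 and 12 days off. With a score of at least 5, 3 gained regions were open at 4 days off, 0 at 8 and 0 at 12. With lists of equal length, 5 regions were gained and 2 lost, a balance of 3, with 2 gained regions open at 4 days off and 0 at 8. With day 12 alone against day 0, 13 were gained, a balance of 12, and 9 were open at 4 days off. With 2 of 3 times on Dox, 12 were gained, a balance of 11, and 8 were open at 4 days off. Both looser rules take in more regions genome-wide as well. Inside the gene span only, 1 gained region was open at 8 and 1 at 12 days off. Score limits and equal lengths removed low-scoring summits by construction; the other causes were not tested. No paired analysis was possible because each group held 1 library, and no replicate could be left out for the same reason.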
